A study of Mus musculus with 2 samples.

Results

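The miR-148/miR-152 family in mouse is made up of 3 microRNA genes, Mir148a, Mir148b and Mir152, and these were measured among 2202 microRNA genes in C2C12 myocytes. C2C12 is a mouse myoblast line from crushed thigh muscle of C3H mice, whose cells fuse into myotubes in culture when differentiation is induced. The cells had been differentiated for 72 h, and 2 libraries, numbered as biological replicates 1 and 2, made up the only group. Cells before differentiation were not analysed here, so the data give levels of the family and the spread between replicates, and no change with differentiation. The genes were chosen by name: identifiers in the count tables were matched to GENCODE M21 symbols, and all 3 were found.

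MicroRNAs guide Argonaute proteins to messenger RNAs, mainly through the seed, bases 2 to 8 of the mature strand. Members of the family share their seed and are best known for repressing the DNA methyltransferase Dnmt1. In myoblasts, miR-148a has been tied to differentiation through the kinase gene Rock1. Mir148b and Mir152 are carried by Copz1 and Copz2, the genes of the zeta subunits of the COPI vesicle coat.

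The sequences below are the mature strands of the family's 3′ arms from RefSeq (build GRCm38.p6), 5′ to 3′, with the seed in capitals. They are shown because the shared seed defines the family and a few bases outside it tell the genes apart.
miR-148a-3p: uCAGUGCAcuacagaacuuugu
miR-148b-3p: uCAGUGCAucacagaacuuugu
miR-152-3p: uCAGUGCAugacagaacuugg
Among 1738 mature mouse entries of the RefSeq table, these 3 were the only ones with that seed. Counted from 1 at the 5′ end, miR-148a-3p and miR-148b-3p differed at 2 of 22 positions (C9U and U10C). Over 21 positions, miR-148a-3p and miR-152-3p differed at 3 (C9U, U10G and U20G) and miR-148b-3p and miR-152-3p at 2 (C10G and U20G). In each of these tokens the base of the first-named strand comes first.

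The strands of the 5′ arms do not all have the same seed, and they are shown in the same way to give the other product of each hairpin.
miR-148a-5p: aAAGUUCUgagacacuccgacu
miR-148b-5p: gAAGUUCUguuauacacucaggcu
miR-152-5p: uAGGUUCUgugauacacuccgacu
The seed of miR-148a-5p and miR-148b-5p was the same and occurred in no other of the 1738 entries, and that of miR-152-5p occurred in this strand alone. The tables count reads per hairpin gene, so the levels given here are of both arms together.

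The hairpins are printed with the 3′ strand in capitals, since they are the units that were counted.
Mir148a: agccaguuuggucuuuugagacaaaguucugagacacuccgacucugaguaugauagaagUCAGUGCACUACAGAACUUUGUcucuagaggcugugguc
Mir148b: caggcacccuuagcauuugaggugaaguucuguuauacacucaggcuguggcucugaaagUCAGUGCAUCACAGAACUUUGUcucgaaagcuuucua
Mir152: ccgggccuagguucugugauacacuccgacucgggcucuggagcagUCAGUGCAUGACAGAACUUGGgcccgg
The Mir152 hairpin was the shortest (73 bases, against 99 for Mir148a and 97 for Mir148b) and had the highest GC content, 61.6% against 45.5% and 45.4%. The longest run that Mir148a and Mir148b shared with any other of the 2201 annotated microRNA hairpins compared was 15 bases, and it was with each other. For Mir152 it was 12 bases, shared with Mir148a. None shared 20 bases with another hairpin, a length that 80 of the 314 detected genes shared, where detected means at least 10 counts in each library. The rest of the genome was not searched, and reads that fitted several places (22.0% of reads in replicate 1 and 17.9% in replicate 2) entered no gene.

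The genes lie on 3 chromosomes of the mm10 build. Mir148a (ENSMUSG00000065505.1) is at chr6:51269812-51269910 on the minus strand, within no protein-coding gene, 163 kb from the nearest one, Nfe2l3. Mir148b (ENSMUSG00000065560.1) is at chr15:103285125-103285221 on the plus strand, in intron 1 of Copz1 and on its strand. Mir152 (ENSMUSG00000065515.1) is at chr11:96850393-96850465 on the plus strand, in intron 1 of Copz2, also on the host's strand. No annotated exon of the 4 Copz1 and 3 Copz2 transcripts that span these hairpins overlapped them.

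Replicate 1 had 7581366 and replicate 2 had 9865298 counts assigned to the sense strand of microRNA genes, and CPM are counts per 1000000 of these. Of 9 muscle marker genes, 7 were detected. The summed level of the 9 was 355315 CPM in replicate 1 and 428275 CPM in replicate 2, nearly all of it from Mir206. In that order of replicates, Mir133b had 13610 and 10568 CPM, Mir499 564 and 378, Mir208b 260 and 495, and Mir486 31.1 and 30.7. Mir1a-1, with 3.03 and 2.84 CPM, and Mir1a-2, with 4.22 and 1.82 CPM, were low, and Mir133a-1 and Mir133a-2 were not detected. Mir206, Mir499 and Mir208b aside, these markers share at least 20 bases with another hairpin, so their counts are uncertain. The 4 blood markers summed to 101 and 183 CPM, the endothelial Mir126a had 217 and 42.9 CPM, the liver microRNA Mir122 had 1.06 and 0.405 CPM, and the 7 epithelial markers summed to 10.7 and 6.99 CPM. Mir200a, Mir429 and 5 of 6 neuronal marker genes had 0 counts in both libraries. Mir126a was higher in replicate 1. The 2 detected blood markers were split, with Mir142 higher in replicate 2 (89.0 and 178 CPM) and Mir451a higher in replicate 1 (11.9 and 3.65 CPM). The part of these genes in the differences between replicates given here was not tested.

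By counts, Mir152 was the most abundant gene of the family, Mir148b came second and Mir148a was the rarest, in both libraries. Together they took 572 CPM in replicate 1 (4337 counts) and 780 CPM in replicate 2 (7697 counts), or 0.0676% ± 0.0147 of the assigned counts (SD, n = 2). All 3 were detected. Their counts were not scaled for length, as the mature strands differ by at most a few bases. How evenly the libraries captured different strands was not measured. Levels of different genes are therefore compared here as counts, not as numbers of molecules.

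Mir152 had 2372 counts in replicate 1, or 313 CPM, and 5915 counts in replicate 2, or 600 CPM. The exact (Clopper-Pearson) 95% intervals, which cover counting error only, were 300 to 326 CPM and 584 to 615 CPM. The libraries thus stood apart for this gene, with replicate 2 the higher, and its mean was 456 ± 203 CPM (SD, n = 2), rank 90 of the 314 detected genes. It ranked 101 in replicate 1 and 71 in replicate 2. The genes directly above and below it by mean level were Mir139 with 458 ± 17.4 CPM and Mir16-1 with 433 ± 257 CPM, differences smaller than the spread between libraries. Mir16-1 shares at least 20 bases with another hairpin, so its count is uncertain.

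Mir148b had 1651 counts in replicate 1, or 218 CPM (interval 207 to 229), and 1358 counts in replicate 2, or 138 CPM (130 to 145). Here replicate 1 was the higher. The mean was 178 ± 56.7 CPM (SD, n = 2), rank 119. Its neighbours in the ranking, Mir15b with 196 ± 131 CPM and Mir1983 with 173 ± 7.10 CPM, did not differ from it beyond this spread.

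Mir148a had 314 counts in replicate 1, or 41.4 CPM (interval 37.0 to 46.3), and 424 in replicate 2, or 43.0 CPM (39.0 to 47.3). The intervals overlapped. Its mean of 42.2 ± 1.10 CPM (SD, n = 2) gave it rank 162, below the median of 53.1 CPM over the detected genes. Mir3061 above it had 45.1 ± 7.30 CPM, and Mir1843b below it had 41.5 ± 10.4 CPM and shares sequence with another hairpin. Neither lay beyond the spread between libraries.

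The order within the family held in both replicates without overlap: the lower of the Mir152 levels, 313 CPM, exceeded the higher Mir148b level, 218 CPM, and the lower Mir148b level, 138 CPM, exceeded the higher Mir148a level, 43.0 CPM. The order was not tested over samples, since the 2 libraries would give such a test little power. All counts of the family came from the annotated strand. The opposite strand of each gene had 0 counts in both libraries, where 3 counts, the limit that a count of 0 allows, equal 0.396 CPM in replicate 1 and 0.304 CPM in replicate 2.

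**Figure D1:**
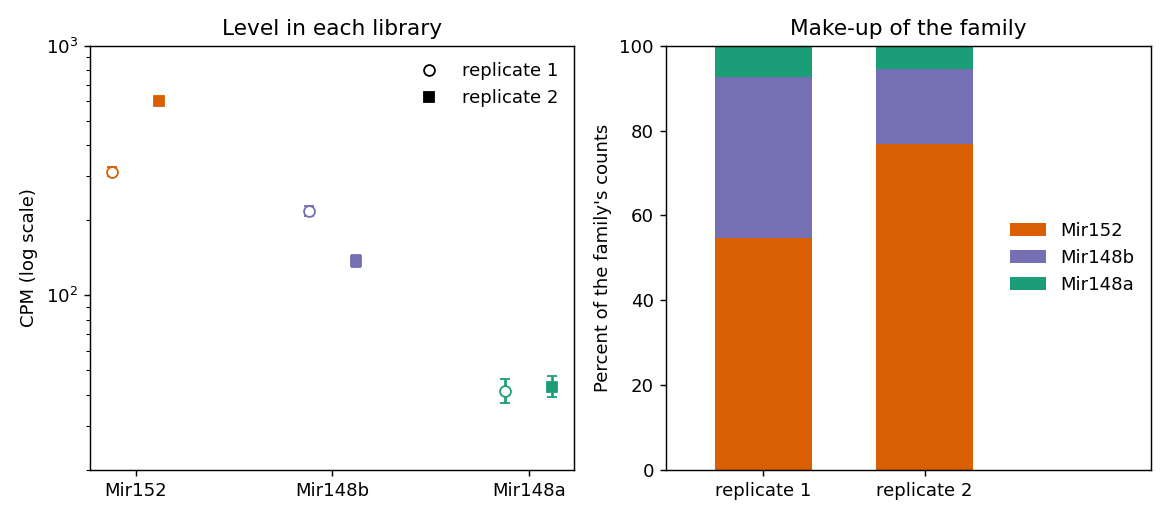
Left, CPM on a log scale of each family gene in replicate 1 (open circles) and replicate 2 (filled squares), with exact 95% intervals of counting error. Right, the percent of the family's counts taken by each gene in each library: Mir152 takes 54.7% in replicate 1 and 76.8% in replicate 2.

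The make-up of the family differed between the libraries by more than counting error. Mir152 held 54.7% of the family's counts in replicate 1 (exact 95% interval 53.2 to 56.2) and 76.8% in replicate 2 (75.9 to 77.8). The share of Mir148b was 38.1% (36.6 to 39.5) in replicate 1 and 17.6% (16.8 to 18.5) in replicate 2. That of Mir148a was 7.24% (6.49 to 8.05) and 5.51% (5.01 to 6.04). Mir152 was the largest part of the family in both libraries.

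Ratios of 2 genes within a library do not depend on the scaling of libraries. There were 1.44 counts of Mir152 for each count of Mir148b in replicate 1 (exact 95% interval 1.35 to 1.53) and 4.36 in replicate 2 (4.11 to 4.62), a 3.03-fold difference between replicates. For Mir152 over Mir148a the ratio was 7.55 (6.71 to 8.52) in replicate 1 and 14.0 (12.6 to 15.4) in replicate 2. For Mir148b over Mir148a it was 5.26 (4.66 to 5.95) and 3.20 (2.87 to 3.58). None of the 3 pairs of intervals overlapped. The libraries carry no molecular identifiers, so copies made by PCR are not independent and these intervals are too narrow by an unknown amount.

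The replicates were also compared gene by gene, by an exact binomial test, two-sided and conditional on both totals, with Benjamini-Hochberg adjustment over the 314 detected genes. This test compares these libraries, not conditions, and it has the counting error alone as its yardstick. Under it 66.6% of the detected genes differed at an adjusted p of 0.05, 28.3% being higher in replicate 2 and 38.2% higher in replicate 1. In the family, 2 of 3 genes differed, a share near that of all genes, and they did so in opposite directions.

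Mir152 was 1.92-fold higher in replicate 2, a log2 ratio of 0.94 with an exact 95% interval of 0.87 to 1.01 (adjusted p = 9.01e-170 in the exact binomial test). Of the detected genes, 24.5% had an absolute log2 ratio at least this large, and 23 genes, Mir152 included, had a ratio toward replicate 2 at least as high. Mir148b was 1.58-fold higher in replicate 1, with a log2 ratio of −0.66 for replicate 2 over replicate 1 and an interval of −0.77 to −0.56 (adjusted p = 1.07e-35, exact binomial test). An absolute ratio at least as large was found for 41.1% of the detected genes. Mir148a had a log2 ratio of 0.05 with an interval of −0.16 to 0.27 and did not pass the test (adjusted p = 0.694, exact binomial test). The median absolute log2 ratio of the detected genes was 0.51.

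**Figure D2:**
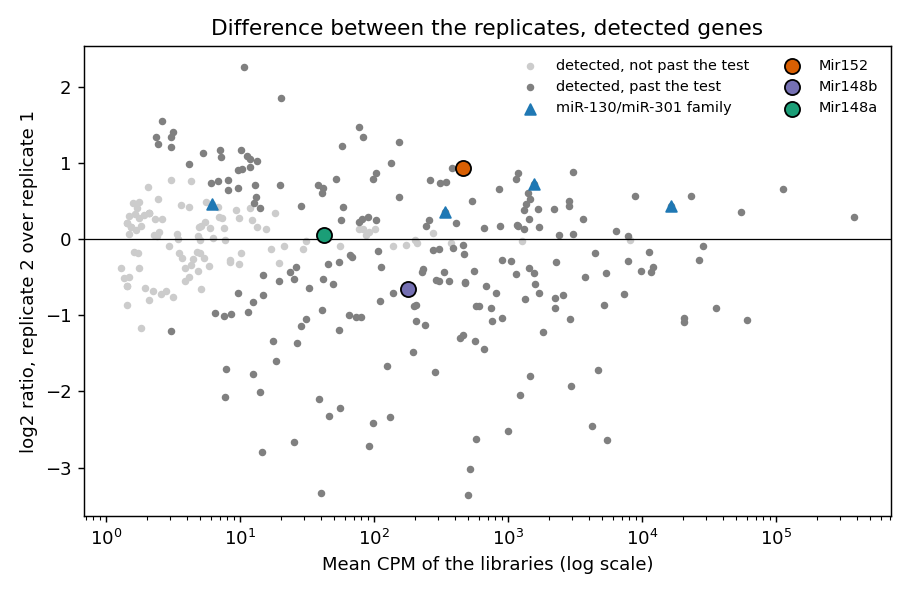
Log2 ratio of replicate 2 over replicate 1 against the mean CPM (log scale) for the 314 detected genes, darker where the exact binomial test was passed. Mir152 lies at 0.94, Mir148b at −0.66 and Mir148a at 0.05, and the 4 detected genes of the miR-130/miR-301 family (triangles) lie between 0.36 and 0.73.

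The directions for Mir152 and Mir148b were the same under every scaling and filter tried, and so were their calls. For the directions this was fixed in advance. The filters left the ratio of each gene as it was, and each scaling moved the family's ratios by the same amount, at most 0.18. Of the settings tried, only the GC correction given below moved these genes by different amounts. Mir148a changed sides of the threshold in 2 cases: with a denominator that leaves out Mir206 its log2 ratio was 0.23 (adjusted p = 0.0472, exact binomial test), and with the trend of the ratio on hairpin GC content removed it was 0.42 (adjusted p = 1.44e-04). Under that GC correction the ratio of Mir148b was −0.29 and that of Mir152 was 0.91. The correction subtracts a fitted line with its intercept, so it also recentred all ratios. It was chosen after the values had been seen.

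**Figure D3:**
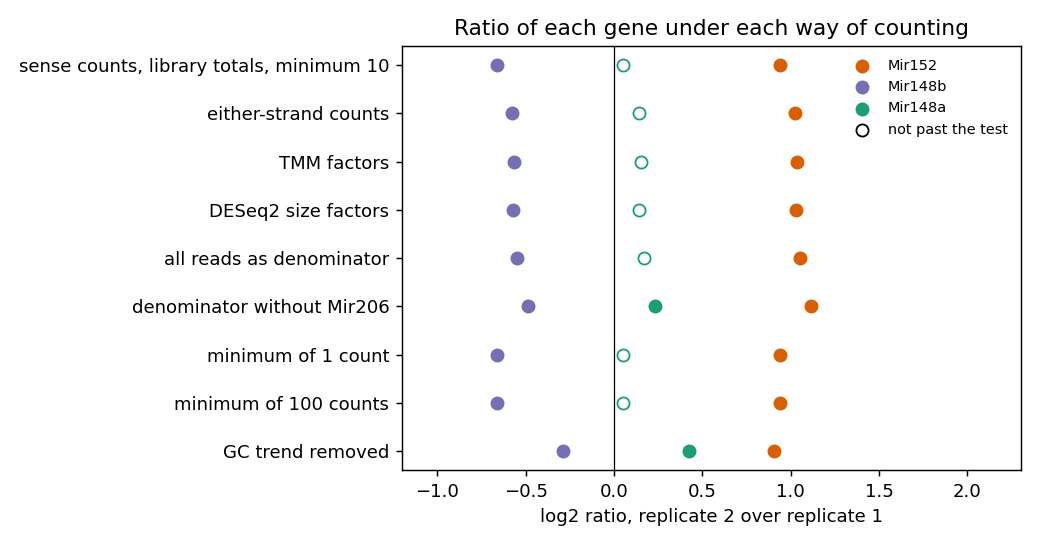
Log2 ratio of replicate 2 over replicate 1 of each family gene (x axis) under each way of counting, scaling or filtering (rows), filled where the exact binomial test was passed. Mir152 stays between 0.91 and 1.11, Mir148b between −0.66 and −0.29, and Mir148a between 0.05 and 0.42.

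To find the genes whose pattern was most like that of each member, the distance on the log2(CPM + 1) scale over the 2 libraries was used, which with so few libraries says only that levels were alike. Closest to Mir152 was Mir208b, a microRNA that the slow myosin gene Myh7 hosts, with 260 CPM in replicate 1 and 495 in replicate 2 (distance 0.38). Mir186, with 439 and 624 CPM, and Mir185, with 380 and 440 CPM, followed at 0.49 and 0.53. Closest to Mir148b were Mir29c with 258 and 140 CPM (distance 0.24), Mir574 with 266 and 146 CPM (0.30) and Mir450b with 280 and 132 CPM (0.36). Closest to Mir148a were Mir3061 with 50.3 and 39.9 CPM (0.29), Mir1306 with 32.4 and 49.3 CPM (0.39) and Mir1843b with 48.9 and 34.2 CPM (0.40). Mir29c shares at least 20 bases with another hairpin.

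The 7 letters of the family's seed also open the mature strands of the miR-130/miR-301 family, where they stand at bases 1 to 7, so that the seeds of both families overlap with a shift of 1 base. One strand of that family is shown for comparison, with those 7 bases in capitals.
miR-130a-3p: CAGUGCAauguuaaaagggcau
These letters open 7 mature strands of the RefSeq set. They are those of Mir130a, Mir130b, Mir301, Mir721, Mir130c, Mir6341 and Mir6389, and the last 4 genes had 0 counts in both libraries. Mir301b was not matched in the RefSeq set. Of the 5 genes listed for the miR-130/miR-301 family, 4 were detected, and their summed level was 15420 CPM in replicate 1 and 21172 CPM in replicate 2. This was 27.0 and 27.1 times the level of the miR-148/miR-152 family in the same library. Mir130a made up most of it, with 13952 and 18851 CPM. Mir130b had 1168 and 1935 CPM, Mir301 had 295 and 379 CPM, and Mir301b had 5.14 and 7.10 CPM. By the exact binomial test 3 of the 4 detected genes were higher in replicate 2, against 28.3% of all detected genes, and Mir301b did not pass (adjusted p = 0.168). Their median log2 ratio was 0.45, against −0.09 over all detected genes.

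MicroRNAs of the miR-29 family and Mir342, which have also been tied to DNA methyltransferases, were set beside the family as a list of 5 genes. All were detected, and by the exact binomial test 3 were higher in replicate 1, against 38.2% of all detected genes, and 2 did not pass. Their median log2 ratio was −0.39, against −0.09 over all detected genes. Their summed level was 11.7 times that of the miR-148/miR-152 family in replicate 1 and 6.21 times in replicate 2. Mir29a held most of it, with 6134 and 4489 CPM, followed by Mir342 with 262 and 200 CPM and Mir29c. Mir29b-1, with 6.20 and 6.28 CPM, and Mir29b-2, with 8.05 and 10.4 CPM, were the 2 that did not pass, and these copies share sequence, so that their counts are uncertain. Mir148b at 218 and 138 CPM therefore stood near Mir342 and Mir29c in level. Mir152 at 313 and 600 CPM was above both in each library, and Mir29a was far above every gene of the miR-148/miR-152 family.

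Mir148b and Mir152 lie near Hox clusters, whose genes set position along the body axis. Mir148b is 248 kb from Hoxc4 and Mir152 is 482 kb from Hoxb1. The detected microRNA genes within 1000 kb of a family gene were all Hox cluster microRNAs: Mir615 and Mir196a-2 near Mir148b, Mir10a and Mir196a-1 near Mir152, and Mir196b near Mir148a. Of 16 annotated microRNA genes in these windows, the remaining 11 were not detected, among them the nearest neighbour of each family gene. These nearest neighbours were Mir6963, 65.2 kb from Mir148b with 1 and 6 counts, Mir8103, 213 kb from Mir152 with 9 and 12 counts, and Gm22914, 352 kb from Mir148a with 0 counts in both libraries.

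The family gene was more abundant than its Hox cluster neighbours in the window of Mir152 and less abundant in the windows of Mir148b and Mir148a. Near Mir152, the family's most abundant gene, the level of Mir10a was 15.2 CPM in replicate 1 and 7.81 CPM in replicate 2, and Mir196a-1 had 4.75 and 3.75 CPM, a gene that shares sequence with Mir196a-2. Near Mir148a, the rarest, Mir196b had 1695 and 294 CPM, the widest gap between replicates in these windows. Near Mir148b, Mir615 had 1141 and 1564 CPM and Mir196a-2 had 811 and 320 CPM. Mir10b, which lies in the remaining Hox cluster, had 0 counts in both libraries. In the exact binomial test 4 of the 5 detected Hox cluster microRNAs differed between replicates, against 66.6% of all detected genes, and of these 4 only Mir615 was higher in replicate 2.

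**Figure D4:**
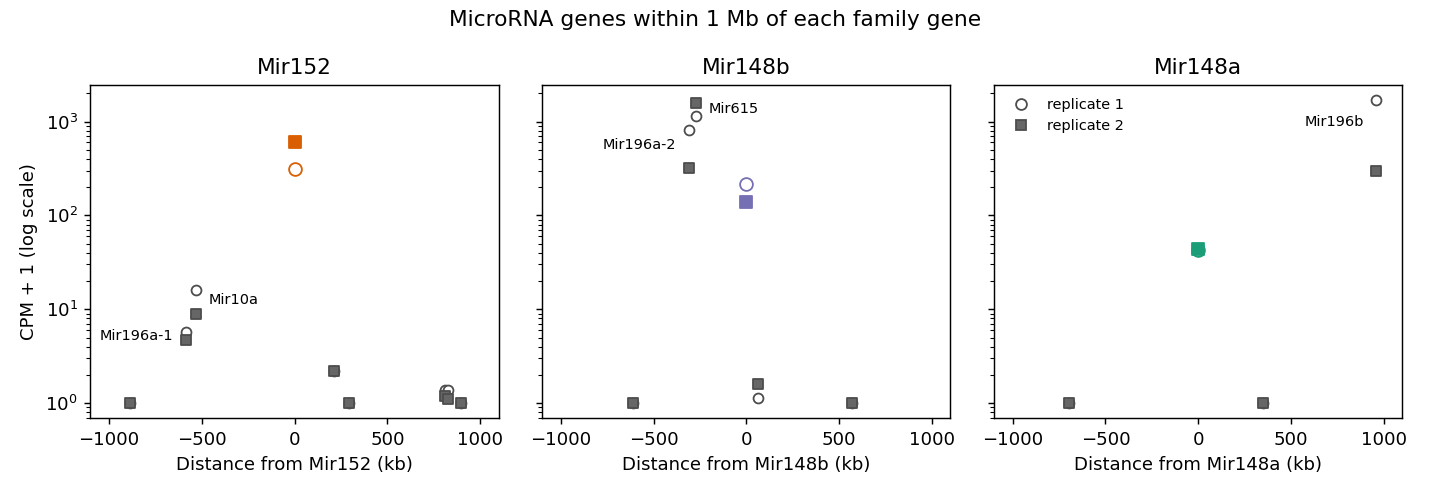
CPM + 1 (log scale) of the microRNA genes within 1000 kb of each family gene against their distance in kb, with positive values toward higher coordinates, in replicate 1 (open circles) and replicate 2 (filled squares). The family gene stands at 0 in colour, and the named neighbours, all of Hox clusters, are those detected. Mir152 exceeds every neighbour, whereas Mir148b and Mir148a lie below the Hox microRNAs near them.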

How the data were processed

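MicroRNA libraries of 2 biological replicates of differentiated C2C12 cells were used. Read counts per microRNA gene were deposited by the authors as whole numbers, not normalized as far as the values show. Per the labels' protocols adapters were trimmed, and per the deposited notes GENCODE M21 on mm10 was the annotation. Which aligner and counter were run is not given in the sources used here. Judging by layout, each table is a STAR gene count table, so counts were read as those of uniquely mapped reads. The sense-strand column was used. The entries that name no gene (50.6% of reads in replicate 1 and 46.5% in replicate 2) stayed out of totals and tests. All 2202 identifiers matched M21. Per the labels the replicates are separate biosamples, but separate cultures are not stated, so the spread between them may be technical in part.

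CPM, exact intervals and exact binomial tests were computed with Python 3.11.15 and scipy 1.17.1. The binomial test and its adjustment were also run on simulated counts, which held counting error alone and no other spread between libraries. edgeR 4.0.16 gave TMM factors and DESeq2 1.42.0 size factors as alternatives. Others were either-strand counts, all reads or all but Mir206 counts as denominator, minimums of 1 and 100 counts, a GC correction added later, and each replicate left out. Named genes are the family, the genes next to each in mean level, the 3 closest to each over the libraries, the nearest microRNA gene on the chromosome, all genes of the Hox, miR-130/miR-301 and methyltransferase lists, the 4 most abundant of the myogenic list, and any gene with the same seed. Mir130c, Mir6341, Mir6389 and the marker genes are named outside this rule, the first 3 from a search of the RefSeq strands. The family and the lists were chosen with earlier results of these data known. A distance to one gene near Mir148a is not reported here.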

Additional observations from a re-analysis of the deposited data

How the results depend on the processing

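The family's mean level of 676 CPM depended on the denominator. It was 350 CPM when all reads were counted and 1103 CPM when Mir206 was left out of the denominator, and 776 CPM in the either-strand counts, where the counts of the 3 genes themselves were the same. With 1 replicate left out it ranged from 572 to 780 CPM, and the ratios within the family ranged from 1.44 to 4.36 (Mir152 over Mir148b), 7.55 to 14.0 (Mir152 over Mir148a) and 3.20 to 5.26 (Mir148b over Mir148a). The number of family genes that differed between replicates was 2 in all but the 2 cases given above for Mir148a, where it was 3. Removing the GC trend turned the split of all called genes from 89 higher in replicate 2 and 120 higher in replicate 1 to 115 and 100. The same step recentred the ratios, moving the median of the detected genes from −0.09 to 0.07. With Mir206 left out of the denominator, a change of scaling alone, the split was 111 and 104. The part of GC content in the changed split was not tested. Leaving Mir206 out moved every log2 ratio by 0.18 and using all reads by 0.11. These shifts follow from the denominators by arithmetic. The cause of the differences between replicates was not tested. With 314 and 424 counts, the interval of the log2 ratio of Mir148a ran from −0.16 to 0.27 with library totals as scaling. No paired analysis was possible because the series has 1 group.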

Other observations

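Beside the summed level of other microRNAs tied to myoblast differentiation, the family was a minor part of these libraries. The list of 19 such genes, all detected, had a summed level of 485790 CPM in the first library and 595729 CPM in the second, which was 849 and 764 times the level of the miR-148/miR-152 family. Its most abundant genes were Mir206 with 340841 and 416794 CPM, Mir378a with 87515 and 138481 CPM, Mir322 with 27578 and 13017 CPM and Mir133b with 13610 and 10568 CPM. Mir378a and Mir133b share sequence with other hairpins, so their counts are uncertain. Mir206 alone made up most of the summed level in each library, so the sum does not describe a typical gene of the list. Genes of the list lay on both sides of Mir152, which had 313 and 600 CPM. It was below Mir133b and above Mir29c, which had 258 and 140 CPM and also shares sequence with another hairpin. Of the 19 genes, 15 differed between replicates in the exact binomial test, against 66.6% of all detected genes, with 6 of them higher in replicate 2 and 9 in replicate 1. The median log2 ratio of the list was −0.02, against −0.09 over all detected genes. Mir148a, which is not on the list, had 41.4 and 43.0 CPM and stood near Mir486 with 31.1 and 30.7 CPM. Mir486 did not pass the exact binomial test (adjusted p = 0.920). It also shares at least 20 bases with another hairpin, so its count is uncertain.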
